A study of Mus musculus with 4 samples.

Results

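Foxp3 regulatory T cells are the CD4 T cells that restrain other lymphocytes, and they were found here in single-cell libraries of mouse kidney by a gate on raw transcript counts. Members were chosen by their raw counts: a barcode had to hold at least 1 UMI (a unique molecular identifier, counted once per captured mRNA) of Foxp3 and at least 1 UMI summed over Cd3d, Cd3e and Cd3g. It also had to hold no Cd8a, Cd8b1 or Cd79a UMI and at most 2 UMIs over C1qa, C1qb and C1qc, which kept out CD8 T cells, B cells and macrophages. The gate found 305 members among 31041 barcodes that had at least 500 UMIs, at least 200 genes and at most 50% of UMIs on mitochondrially encoded genes. The 4 libraries gave 48 members in mutant 1 and 134 in mutant 2, against 12 in WT 1 and 111 in WT 2.

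The mutant mice carry a point mutation in the mitochondrial tRNA gene TrnE, which encodes the tRNA for glutamate, and the WT mice are C57BL/6J. The labels give the mutation load, the share of mitochondrial DNA copies with the mutation, as 79% in mutant 1 and 76% in mutant 2. The series asks how mitochondrial tRNA mutations bear on kidney disease, and each library is the droplet 3′ RNA profile of a whole kidney suspension digested with Liberase and sorted for viable single cells. The sources used here do not give age, sex, litter, processing day or the tissue in which the load was measured. The labels name each library only as a mouse of its genotype, so p-values between genotypes measure the spread between these 4 libraries. Those between cell classes, and those for the difference of mutant effects, measure how the class difference within a library varies across the 4.

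Regulatory T cells are set apart by the transcription factor Foxp3, which is encoded on the X chromosome. They consume interleukin-2 through a high-affinity receptor, strip costimulatory ligands from antigen-presenting cells through Ctla4, and make inhibitory cytokines. In non-lymphoid organs they take on a tissue form that can express the interleukin-33 receptor Il1rl1, the integrin Itgae, the lectin receptor Klrg1 and the growth factor amphiregulin, and in kidney they are known for limiting injury.

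Kept barcodes numbered 9774 and 9071 in the mutant libraries, against 5768 and 6428 in the WT libraries, with medians of 4452 and 5846 UMIs in the mutants and 4937.5 and 6599 in WT. WT 2 stood apart in holding 72 barcodes with at least 3 C1q UMIs and no Cd3 UMI, against 928 to 3194 in the other libraries. The deposited file of WT 1 bears a name like that of a mutant, and the point mutation could not be read from gene counts. Cell Ranger 7.0.0 is named in the mutant headers and 7.1.0 in the WT headers, so genotype and software version cannot be told apart. Pairs of libraries shared 14 to 26 barcode sequences, and 1 of these was a member, in mutant 2 and WT 2.

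The gate kept 305 of 421 barcodes with a Foxp3 UMI. A missing Cd3 UMI removed 33, a Cd8 UMI removed 45, a Cd79a UMI removed 16, and C1q UMIs removed 22, the last group all from the mutant libraries. Just inside the threshold stood 114 members with exactly 1 Foxp3 UMI, while 75 had 2 and 116 had 3 or more, up to 11. Members with 1 Foxp3 UMI had a median of 4885.5 UMIs, and 57.9% of them held UMIs of all 3 of Ikzf2, Ctla4 and Tnfrsf4, which the gate does not read. Just outside it, the 3719 T cells that passed the same gate but had no Foxp3 UMI had a median of 4967 UMIs, and 9.49% of them held all 3. The corresponding share was 79.3% in members with 3 or more Foxp3 UMIs. Members with 1 Foxp3 UMI therefore stood much nearer to the other members than to T cells of like depth without one.

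Foxp3 was rarely seen in tubule barcodes, which should lack it. Barcodes of proximal tubule type (Lrp2 and Slc34a1 present, no Ptprc or Cd3) held a Foxp3 UMI in 0 of 1051 and 3 of 635 in the mutants (0 and 0.472%), against 0 of 1059 and 10 of 2259 in WT (0 and 0.443%). Their median depths were 5920 and 4407 UMIs in the mutants and 5073 and 6447 in WT. The members' median depths were 3114 and 5114 UMIs in the mutants, against 4101 and 6527 in WT. Mutant 1 members were thus the shallowest and WT 2 members the deepest, so shares of cells with a UMI are also given after each cell was thinned to 1000 UMIs for the genes compared by share. Shares not named as thinned are at full depth.

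RNA of other cell types was a small share of most members and a larger one of a few. A T cell receptor beta constant transcript was present in 294 of 305 members, a Cd4 UMI in 167, Trdc in 3, and a UMI of the cycling genes Mki67 or Top2a in 35. UMIs of 49 genes that mark macrophages, dendritic cells, tubule and endothelium or encode class II molecules had a median share of 0.441% and 0.240% per member in the mutants, against 0.238% and 0.267% in WT. Members over 1% numbered 5 and 10 in the mutants and 3 and 17 in WT, and in WT 1 those were 3 of 12. Each of those 3 was also over 5%, which was so of 2 and 1 members of the mutants and 2 of WT 2. In WT 1 those 3 held 12302, 14364 and 16562 of its 77217 summed UMIs, more than all its other members together. Scrublet called 7 members doublets, 4 in mutant 2 and 3 in WT 2. A limit of 1% on these genes, chosen after the data were seen, was therefore run as an alternative for each comparison.

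**Figure D1:**
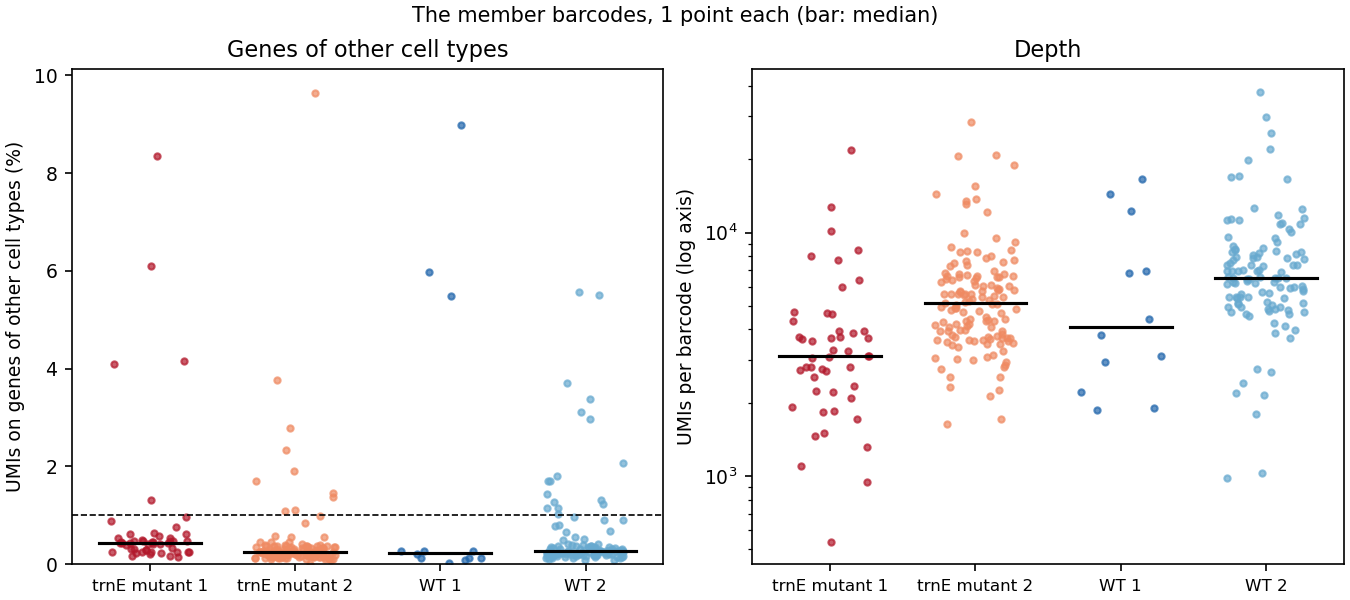
Each point is a gated regulatory T cell, by library on the x axis; the left panel shows the percent of its UMIs on 49 genes of other cell types, with a dashed line at 1%, and the right panel its total UMIs on a log axis, with a bar at each median. Most members lie under the dashed line in every library, 35 lie above it, and median depth runs from 3114 UMIs in mutant 1 to 6527 in WT 2.

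The label was checked against the 3 other markers. Ikzf2 encodes Helios, a transcription factor of the Ikaros family that marks most regulatory T cells (chr1:69531214-69687245, minus strand, in mm10). At least 1 Ikzf2 UMI was present in 89.6% and 97.8% of mutant members and in 83.3% and 98.2% of WT members. In conventional CD4 T cells (the same gate with at least 1 Cd4 UMI and no Foxp3 UMI, 1149 cells) Ikzf2 was present in 31.1% and 46.7% in the mutants and 39.0% and 60% in WT. After thinning, Ikzf2 was present in 69.6% and 87.3% of mutant members and 58.3% and 89.1% of WT members. The thinned shares were 15.9% and 23.6% in mutant conventional CD4 T cells, against 17.1% and 32.6% in WT. Proximal tubule barcodes held Ikzf2 in 1.90% and 0.482% in the mutants and 1.43% and 2.82% in WT after the same thinning. Every library had its highest Ikzf2 share in the members, and the lowest member share was above the highest conventional share.

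Ctla4 encodes the inhibitory receptor that competes with Cd28 for ligands (chr1:60887000-60915832, plus strand). At full depth it was present in 77.1% and 83.6% of mutant members and 58.3% and 92.8% of WT members, against 41.3% and 46.9% of mutant and 26.8% and 69.4% of WT conventional CD4 T cells. After thinning it was present in 56.5% and 49.3% of mutant members and 41.7% and 60% of WT members, against 19.5% and 21.2% of mutant and 11.0% and 38.5% of WT conventional CD4 T cells. Tnfrsf4 encodes the costimulatory receptor OX40 (chr4:156013843-156016612, plus strand). It was present at full depth in 75% and 85.1% of mutant members and 58.3% and 82.9% of WT members, against 36.2% and 49.9% of mutant and 29.3% and 54.7% of WT conventional CD4 T cells. Its thinned shares were 47.8% and 50% in mutant members and 25% and 40% in WT members, against 18.5% and 22.1% in mutant and 11.0% and 18.8% in WT conventional CD4 T cells. In each library and at both depths, both markers were more frequent in members than in conventional CD4 T cells.

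All 3 of Ikzf2, Ctla4 and Tnfrsf4 were found together in 216 of 305 members, 2 of them in 70, 1 in 13 and none in 6. By library this was 60.4% and 72.4% of the mutant members and 25% and 78.4% of the WT members. The 3 were also found together in 271 of 1149 conventional CD4 T cells and in 48 of 2761 CD8 T cells. The conventional CD4 class therefore held cells with the regulatory marker set but no Foxp3 UMI, and how many of those express Foxp3 was not tested.

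**Figure D2:**
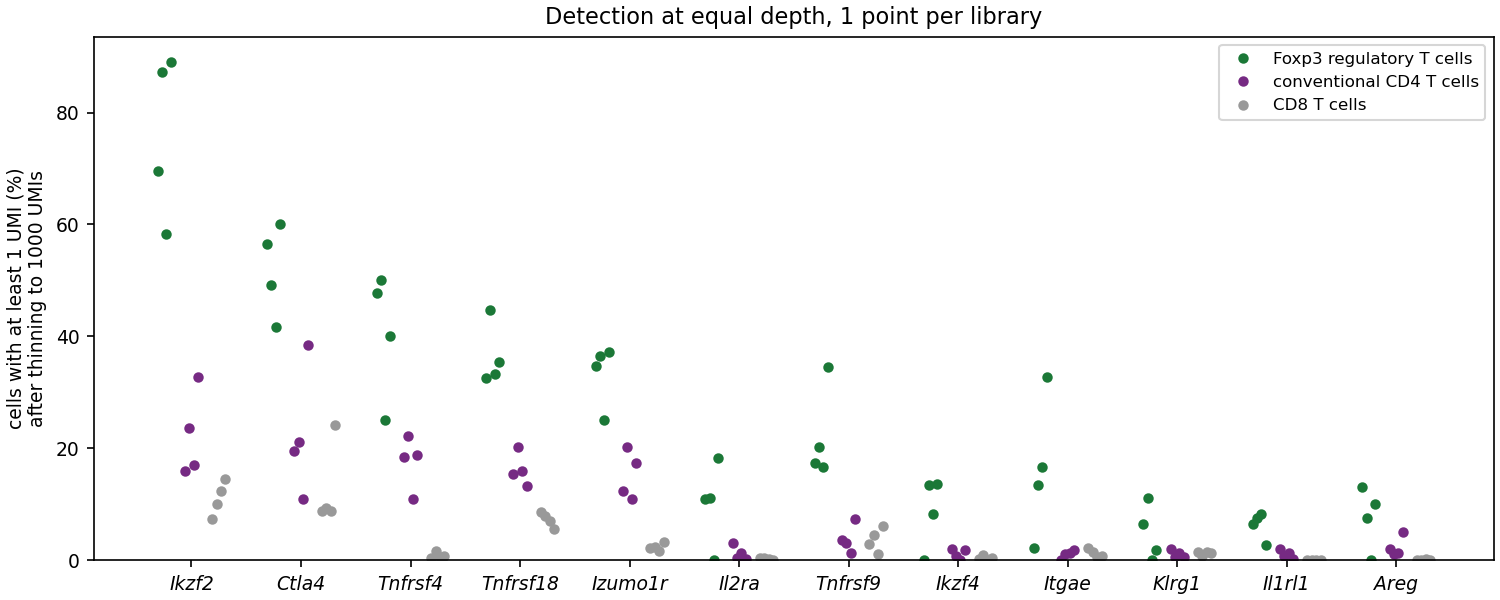
Percent of cells with at least 1 UMI of each of 12 genes after thinning every cell to 1000 UMIs, for regulatory, conventional CD4 and CD8 T cells; each point is a library. Ikzf2 is present in 58.3% to 89.1% of regulatory T cells across the 4 libraries, against 15.9% to 32.6% of conventional CD4 T cells.

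Against conventional CD4 T cells of the same 4 libraries, regulatory T cells were higher for 10 of 17 identity genes tested and lower for 4 of 8 helper genes and 5 of 11 genes of resting T cells. UMIs were summed over the cells of each class in each library and compared with edgeR's quasi-likelihood test with library as a block, and p-values were adjusted by the Benjamini-Hochberg method over 8265 genes. The genes that either gate reads were left out of the test. At an adjusted p under 0.05, 394 genes changed, 4.77% of those tested, with 214 higher (2.59%) and 180 lower (2.18%) in regulatory T cells. Without TMM scaling the split was 285 higher and 139 lower, as that setting moved the median of all genes from -0.02 to 0.07 on the log2 scale. Leaving out mutant 2 left 109 calls and leaving out WT 2 left 150, and those are the libraries with the most members.

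Genes known to mark regulatory T cells in other tissues were higher. Of 21 listed identity genes, 17 were tested, 10 rose, none fell and 16 had a positive fold change, with a median log2 fold change of 1.24 beside -0.02 over all genes tested. The list was written with earlier results of these data known. Foxp3 is on the list and is fixed by the gate, so it was left out of the test and of the sum. The summed level of the other genes was 7124 and 8878 CPM (UMIs per 1000000 UMIs of that sum) in mutant and 4921 and 9387 in WT regulatory T cells, against 2249 and 3028 in mutant and 2202 and 3385 in WT conventional CD4 T cells. Each library's regulatory T cells stood above every conventional sum. With other-type RNA limited to 1%, the sum, here with Foxp3, rose from 5167 to 7708 CPM in WT 1 members. It rose from 9733 to 11746 CPM in WT 2, and from 7551 and 9323 to 8525 and 10308 CPM in the mutants.

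Ikzf2 itself stood at 1661 and 2543 CPM in mutant and 1269 and 3024 CPM in WT regulatory T cells. Its levels in conventional CD4 T cells were 165 and 444 CPM in the mutants and 233 and 657 CPM in WT. The 2 classes did not overlap, and Ikzf2 was 5.72-fold higher in regulatory T cells, a log2 fold change of 2.52 with a standard error of 0.165 (adjusted p = 5.34e-06, edgeR's quasi-likelihood test). Ikzf4, which encodes the related factor Eos, stood at 36.0 and 107 CPM in mutant and 38.9 and 148 CPM in WT regulatory T cells, against 14.6 and 8.19 CPM in mutant and 4.35 and 22.0 CPM in WT conventional cells. Ikzf4 rose by 2.80 on the log2 scale (standard error 0.312, adjusted p = 0.000191 in the same test).

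Receptors of the tumour necrosis factor family, which carry costimulatory signals, were higher in the regulatory cells. Tnfrsf9, encoding 4-1BB, stood at 324 and 382 CPM in mutant and 90.7 and 355 CPM in WT regulatory T cells, against 51.2 and 56.6 CPM in mutant and 10.9 and 68.9 CPM in WT conventional cells. Its mean was 288 ± 134 CPM, against 46.9 ± 25.1 CPM (SD, n = 4 libraries each). The fitted difference within libraries was 5.70-fold and passed the test (adjusted p = 5.34e-06, edgeR's quasi-likelihood test). Tnfrsf18, encoding GITR, stood at 494 and 677 CPM in mutant and 376 and 409 CPM in WT regulatory T cells, against 192 and 246 CPM in mutant and 174 and 106 CPM in WT conventional cells (log2 fold change 1.43, standard error 0.150, edgeR adjusted p = 0.000128). Tnfrsf4 stood at 797 and 947 CPM in mutant and 246 and 607 CPM in WT regulatory T cells, against 249 and 304 CPM in mutant and 211 and 262 CPM in WT conventional cells. WT 1, with 12 members of which 3 were over 5% other-type RNA, gave the lowest Tnfrsf4 and Tnfrsf9 levels among the regulatory sums. Tnfrsf4 rose 2.36-fold (edgeR adjusted p = 0.00137), and its adjusted p was 0.0605 when mutant 2 was left out.

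Il2ra encodes the alpha chain of the interleukin-2 receptor, CD25 (chr2:11642807-11693193, plus strand). It stood at 170 and 131 CPM in mutant and 13.0 and 307 CPM in WT regulatory T cells, against 30.3 and 9.89 CPM in mutant and 6.52 and 23.4 CPM in WT conventional cells. The WT 1 sum lay within the conventional range, and the other 3 lay above it. Il2ra was 9.62-fold higher in regulatory T cells (log2 fold change 3.27, standard error 0.261, adjusted p = 1.81e-05, edgeR's quasi-likelihood test). An Il2ra UMI was present in 33.3% and 38.1% of mutant and 8.33% and 61.3% of WT members at full depth, and in 10.9% and 11.2% of mutant and 0 and 18.2% of WT members after thinning.

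Ctla4 stood at 1595 and 1192 CPM in mutant and 971 and 1375 CPM in WT regulatory T cells, against 362 and 380 CPM in mutant and 256 and 665 CPM in WT conventional cells, 2.96-fold higher (adjusted p = 0.000128, edgeR's quasi-likelihood test). Izumo1r, encoding folate receptor 4, rose by 1.25 on the log2 scale (adjusted p = 0.000446 in the same test). Capg, which encodes an actin-capping protein, and Nt5e, which encodes the adenosine-producing enzyme CD73, rose by 1.07 and 1.09, with edgeR adjusted p of 0.00547 and 0.00746. Both lost the call without mutant 2 and without WT 2. Identity genes that did not pass included Icos at 0.47 (adjusted p = 0.0612), Nrp1 at 0.49 (adjusted p = 0.113) and Tigit at 0.70 (adjusted p = 0.34), all by edgeR and each higher in 4 of 4 libraries.

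Genes of tissue-type regulatory T cells were split. Of 30 listed, 29 were tested; 7 rose, 2 fell, and the median log2 fold change was 0.48. The risers were Itgae, Klrg1, Tnfrsf9, Itgb8, Il1rl1, Penk and Ccr8, and those that fell were the chemokine receptor gene Cxcr6 and the transcription factor gene Id2. Gata3, Batf and Rora, transcription factor genes on this list, had log2 fold changes of 0.48, 0.10 and -0.01 and did not pass.

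Itgae encodes CD103, an integrin that binds E-cadherin on epithelium (chr11:73090583-73147446, plus strand). It stood at 56.6 and 194 CPM in mutant and 90.7 and 368 CPM in WT regulatory T cells, against 2.09 and 21.2 CPM in mutant and 4.35 and 17.8 CPM in WT conventional cells. The lowest regulatory sum was above the highest conventional one. Itgae had the largest rise among genes of at least 30 CPM with one sign in all 4 libraries, 13.7-fold (log2 fold change 3.78, standard error 0.258, adjusted p = 6.56e-06, edgeR's quasi-likelihood test). At full depth Itgae was present in 14.6% and 42.5% of mutant members and 33.3% and 75.7% of WT members, and after thinning in 2.17% and 13.4% of mutant and 16.7% and 32.7% of WT members.

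Klrg1, a receptor for cadherins found on differentiated lymphocytes (chr6:122270596-122282882, minus strand), stood at 185 and 147 CPM in mutant and 51.8 and 30.0 CPM in WT regulatory T cells. Conventional cells held 13.6 and 6.48 CPM in the mutants and 6.52 and 3.85 CPM in WT. Klrg1 rose by 3.71 on the log2 scale in regulatory T cells (standard error 0.302, adjusted p = 1.81e-05, edgeR's quasi-likelihood test). Klrg1 and Itgae thus shared a direction against conventional cells in every library, while among the members the higher Klrg1 levels were in the mutants and the highest Itgae level was in WT 2.

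Il1rl1, the interleukin-33 receptor, stood at 108 and 84.9 CPM in mutant and 38.9 and 43.8 CPM in WT regulatory T cells, against 27.2 and 7.5 CPM in mutant and 26.1 and 13.6 CPM in WT conventional cells (log2 fold change 2.14, standard error 0.349, edgeR adjusted p = 0.00321). Areg, encoding amphiregulin, stood at 247 and 83.7 CPM in mutant and 13.0 and 142 CPM in WT regulatory T cells, against 74.2 and 21.8 CPM in mutant and 63.0 and 105 CPM in WT conventional cells, and did not pass (edgeR adjusted p = 0.113). Of the 48 Areg UMIs of mutant 1 members, 28 came from 1 cell. An Il1rl1 UMI was present in 55 of 305 members and an Areg UMI in 64, and 9 members held both. An Il1rl1 or Klrg1 UMI was present in 88 members.

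Genes of resting and recirculating T cells were lower. Of 13 listed, 11 were tested, 5 fell, none rose and none had a positive fold change, with a median log2 fold change of -0.76. Tcf7, encoding the transcription factor TCF-1, stood at 51.4 and 42.5 CPM in mutant and 25.9 and 81.9 CPM in WT regulatory T cells, against 139 and 227 CPM in mutant and 156 and 438 CPM in WT conventional cells. It fell by 2.37 on the log2 scale without overlap between the classes (adjusted p = 1.81e-05, edgeR's quasi-likelihood test). The survival gene Bcl2 fell by 1.41 (edgeR adjusted p = 0.000376), and S1pr1, the receptor that guides T cells out of tissue into lymph, fell by 1.92 (edgeR adjusted p = 0.00474). S1pr1 lost the call without WT 2 and against conventional cells matched to the members on UMIs per cell.

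Products of helper T cells were also lower. Of 17 listed helper genes, 8 were tested, 4 fell and none rose. Cd40lg, the ligand by which helper cells license B cells and antigen-presenting cells (chrX:57212143-57224042, plus strand), stood at 10.3 and 7.49 CPM in mutant and 0 and 11.5 CPM in WT regulatory T cells, against 209 and 133 CPM in mutant and 209 and 140 CPM in WT conventional cells. It was 17.0-fold lower in regulatory T cells (log2 fold change -4.09, standard error 0.267, adjusted p = 5.34e-06, edgeR's quasi-likelihood test). Ifng, encoding interferon gamma, stood at 5.14 and 7.49 CPM in mutant and 0 and 12.7 CPM in WT regulatory T cells, against 95 and 80.5 CPM in mutant and 91.3 and 56.3 CPM in WT conventional cells (log2 fold change -3.05, edgeR adjusted p = 0.000154). Il2 fell by 3.62 (edgeR adjusted p = 0.00506), and lost the call without WT 2. Tbx21 fell by 1.29 (edgeR adjusted p = 0.0395), a call lost in 8 alternatives.

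The largest fall was that of Gzmk, which encodes granzyme K (chr13:113171608-113225908, minus strand). It stood at 25.7 and 3.75 CPM in mutant and 13.0 and 3.46 CPM in WT regulatory T cells, against 157 and 249 CPM in mutant and 293 and 164 CPM in WT conventional cells, 32.2-fold lower (log2 fold change -5.01, standard error 0.371, adjusted p = 1.21e-05, edgeR's quasi-likelihood test). The chemokine gene Xcl1 was 17.8-fold lower, the phosphodiesterase gene Pde3b 16.4-fold, Cxcr6 13.2-fold, and Tnfsf8, encoding the CD30 ligand, 9.95-fold. Each was lower in 4 of 4 libraries, with edgeR adjusted p of 1.46e-05, 0.000205, 1.5e-05 and 5.85e-05.

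Several large rises were in genes less often used as markers. Cep112, encoding a centrosomal protein, stood at 20.6 and 122 CPM in mutant and 13.0 and 355 CPM in WT regulatory T cells, against 4.18 and 4.09 CPM in mutant and 4.35 and 37.4 CPM in WT conventional cells (11.6-fold, edgeR adjusted p = 4.04e-05). Neb, which encodes the muscle protein nebulin, was 11.4-fold higher (edgeR adjusted p = 1.81e-05). Hpgd, encoding the enzyme that inactivates prostaglandins, was 6.60-fold higher (edgeR adjusted p = 0.00123). Cep112 and Neb were highest in WT 2 and Hpgd in WT 1. Of the 20 genes with the largest rises and falls, Hpgd was the one to lose its call under any alternative, at a log2 fold change of 0.97 against all Foxp3-negative T cells (edgeR adjusted p = 0.151).

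**Figure D3:**
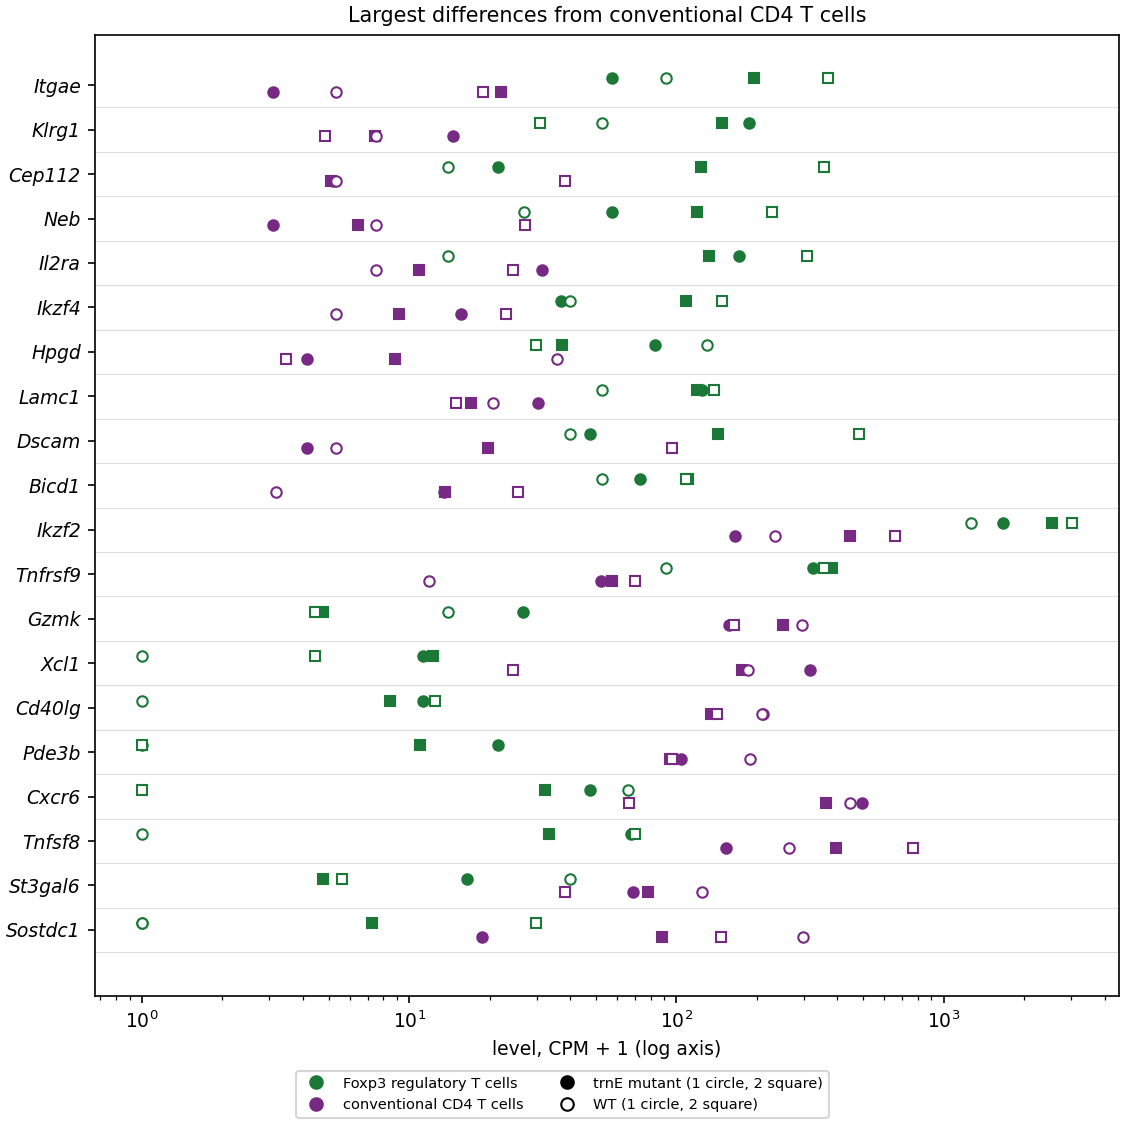
CPM plus 1, on a log axis, of the 20 genes with the largest rises and falls between regulatory and conventional CD4 T cells; each point is a library sum, regulatory T cells above and conventional CD4 T cells under them for each gene, filled for mutant and open for WT. Itgae, 13.7-fold higher in regulatory T cells, and Gzmk, 32.2-fold lower, do not overlap between the classes.

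Genes of suppressive function, drawn from several mechanisms, were partly raised. Of 17 listed, 12 were tested and 4 rose, none fell, and 10 had a positive fold change. Itgb8, an integrin subunit that activates latent transforming growth factor beta, stood at 118 and 192 CPM in mutant and 25.9 and 271 CPM in WT regulatory T cells, against 19.8 and 39.6 CPM in mutant and 23.9 and 95.9 CPM in WT conventional cells (log2 fold change 1.80, edgeR adjusted p = 0.000491). Fgl2, a secreted fibrinogen-like protein, rose by 1.36 (edgeR adjusted p = 0.00506). Il10 was near the limit of detection in both classes, at 25.7 and 6.25 CPM in mutant and 0 and 16.1 CPM in WT regulatory T cells, against 1.04 and 15.4 CPM in mutant and 0 and 45.5 CPM in WT conventional cells (edgeR adjusted p = 0.587).

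Mitochondrially encoded mRNAs took a smaller share of the summed transcripts in regulatory than in conventional CD4 T cells of every library. Their summed level was 24309 and 36810 CPM in mutant and 28362 and 40141 CPM in WT regulatory T cells, against 39278 and 45391 CPM in mutant and 59545 and 48491 CPM in WT conventional cells. Per cell, the median share was 1.60% and 2.30% in mutant and 1.52% and 2.77% in WT regulatory T cells. Conventional cells had medians of 1.47% and 2.45% in the mutants and 2.09% and 3.24% in WT, so the medians of mutant 1 went the other way. Of 13 genes tested, 11 fell and none rose, with a median log2 fold change of -0.67. mt-Co3, a subunit of cytochrome oxidase, fell by 0.77 (adjusted p = 0.00933), and mt-Nd1, a subunit of complex I, by 0.70 (adjusted p = 0.0105), both by edgeR's quasi-likelihood test. Every fold change tested for the set was negative in each alternative run. No gene of the set passed by edgeR without mutant 1, without mutant 2 or against conventional cells matched on UMIs per cell, where the median over the 12 genes tested was -0.49. Of 36 nuclear-encoded complex I genes and 37 of complexes II to V, none passed by edgeR, with medians of 0.02 and -0.02.

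Markers of other cell types also differed between the 2 classes. On the CD8 list all 3 genes tested, Nkg7, Ccl5 and Gzmk, fell by edgeR, with a median of -2.64. Without Cd8a and Cd8b1 that list summed to 921 and 847 CPM in mutant and 673 and 487 CPM in WT regulatory T cells. Conventional cells held 2379 and 3194 CPM in the mutants and 4612 and 1617 CPM in WT. The part of CD8 T cell RNA in the conventional sums was not tested. Ighm, a B cell marker, rose by 1.35 (edgeR adjusted p = 0.000131), at 401 and 816 CPM in mutant and 531 and 1185 CPM in WT regulatory T cells, against 166 and 244 CPM in mutant and 169.5 and 526 CPM in WT conventional cells. Zbtb46, a dendritic cell factor, rose by 1.64 and Pecam1, an endothelial adhesion molecule, fell by 1.71 (edgeR adjusted p = 0.0123 and 0.00588). Whether the Ighm, Zbtb46 and Pecam1 values reflect RNA of other cells was not tested. Of 8 macrophage markers tested, Tyrobp and Cd68 rose and all 8 had positive fold changes, with a median of 1.01. Tyrobp, an adaptor of myeloid and natural killer receptors, stood at 123 and 197 CPM in mutant and 777 and 116 CPM in WT regulatory T cells, against 132 and 103 CPM in mutant and 170 and 26.9 CPM in WT conventional cells. With barcodes over 1% other-type RNA left out of both classes, Tyrobp had a log2 fold change of -0.88, and none of the 5 macrophage markers still tested passed by edgeR. With that limit 681 genes changed by edgeR, 349 of the 394 among them, and 361 of the 363 still tested kept their sign.

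Set against CD8 T cells of the same libraries (2761 cells with a Cd8a or Cd8b1 UMI and no Cd4 or Foxp3 UMI), regulatory T cells differed in 978 of 9447 genes, 10.4%, by edgeR's quasi-likelihood test (Benjamini-Hochberg). Of these 491 were higher (5.2%) and 487 lower (5.16%), or 711 and 330 without TMM scaling, which moved the median of all genes from -0.05 to 0.13. The identity list rose in 15 of the 18 genes tested, with none lower and a median of 2.79 beside -0.05 over all genes. Tissue-type genes rose in 14 of 29 and fell in 6, and resting genes fell in 6 of 12 with none higher.

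Il1rl1, Areg and Tnfrsf4 were among the 12 largest rises and were low in CD8 T cells. Il1rl1 stood at 108 and 84.9 CPM in mutant and 38.9 and 43.8 CPM in WT regulatory T cells, against 1.81 and 0.588 CPM in mutant and 1.5 and 0 CPM in WT CD8 T cells (76.3-fold, edgeR adjusted p = 8.67e-06). Areg was at 1.36 and 1.27 CPM in mutant and 0.999 and 2.24 CPM in WT CD8 T cells and 64.3-fold higher in regulatory T cells (edgeR adjusted p = 6.83e-07). Areg thus passed against CD8 T cells and not against conventional CD4 T cells, and the difference between those contrasts was not tested. Tnfrsf4 was at 31.8 and 21.5 CPM in mutant and 4.49 and 24.7 CPM in WT CD8 T cells and 28.7-fold higher in regulatory T cells (edgeR adjusted p = 1.24e-07). Gata3, the transcription factor of type 2 immunity, rose by 1.80 (edgeR adjusted p = 0.000103).

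The largest falls included cytotoxic genes and a factor of CD8 T cells. Gzmb, encoding granzyme B, was at 0 and 2.50 CPM in mutant and 0 and 2.31 CPM in WT regulatory T cells, against 51.7 and 134 CPM in mutant and 108 and 137 CPM in WT CD8 T cells (log2 fold change -6.05, edgeR adjusted p = 7.57e-07). Eomes, a transcription factor of memory and effector CD8 T cells, was at 5.14 and 0 CPM in mutant and 0 and 1.15 CPM in WT regulatory T cells, against 113 and 152 CPM in mutant and 155 and 190 CPM in WT CD8 T cells (log2 fold change -7.38, edgeR adjusted p = 9.64e-07). The chemokine gene Ccl5 was at 736 and 747 CPM in mutant and 622 and 436 CPM in WT regulatory T cells, against 12840 and 13146 CPM in mutant and 15342 and 13303 CPM in WT CD8 T cells. Ccl5 fell by 4.64 on the log2 scale (edgeR adjusted p = 5.36e-09). How much of the Ccl5 RNA in regulatory T cells was free RNA was not tested. Mitochondrially encoded genes fell in 5 of 13, and none of those 5 calls held without TMM scaling or with DESeq2.

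The number of regulatory T cells did not separate mutant from WT kidneys. They made up 4.36% (3.23 to 5.74) and 8.40% (7.09 to 9.87) of gated T cells in the mutants, against 2.55% (1.33 to 4.42) and 12.9% (10.8 to 15.4) in WT, where brackets hold exact Clopper-Pearson 95% intervals that cover counting error only. The denominators were 1101 and 1595 gated T cells in the mutants and 470 and 858 in WT. The WT libraries had the lowest and the highest share, and the mutant libraries lay between them. The means were 6.38 ± 2.86% in mutants and 7.75 ± 7.34% in WT (SD, n = 2 each), a difference of -1.36 percentage points (exact permutation test, two-sided, p = 1; the smallest p that 2 against 2 libraries allow is 0.33).

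Of all kept barcodes the members made up 0.491% and 1.48% in the mutants, against 0.208% and 1.73% in WT. The means were 0.984 ± 0.697% in mutants and 0.967 ± 1.07% in WT (SD, n = 2 each; exact permutation test, two-sided, p = 1). Thinning to 1000 UMIs lowered the share of gated T cells to 2.27% and 3.51% in the mutants and 0.820% and 5.93% in WT, in the same order of libraries. Among gated T cells with a Cd4 UMI, the members' share was 9.68% and 10.9% in the mutants, against 5.75% and 18.3% in WT. In droplet data from digested tissue a share also depends on how well each cell type was released and sorted, which was not tested.

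**Figure D4:**
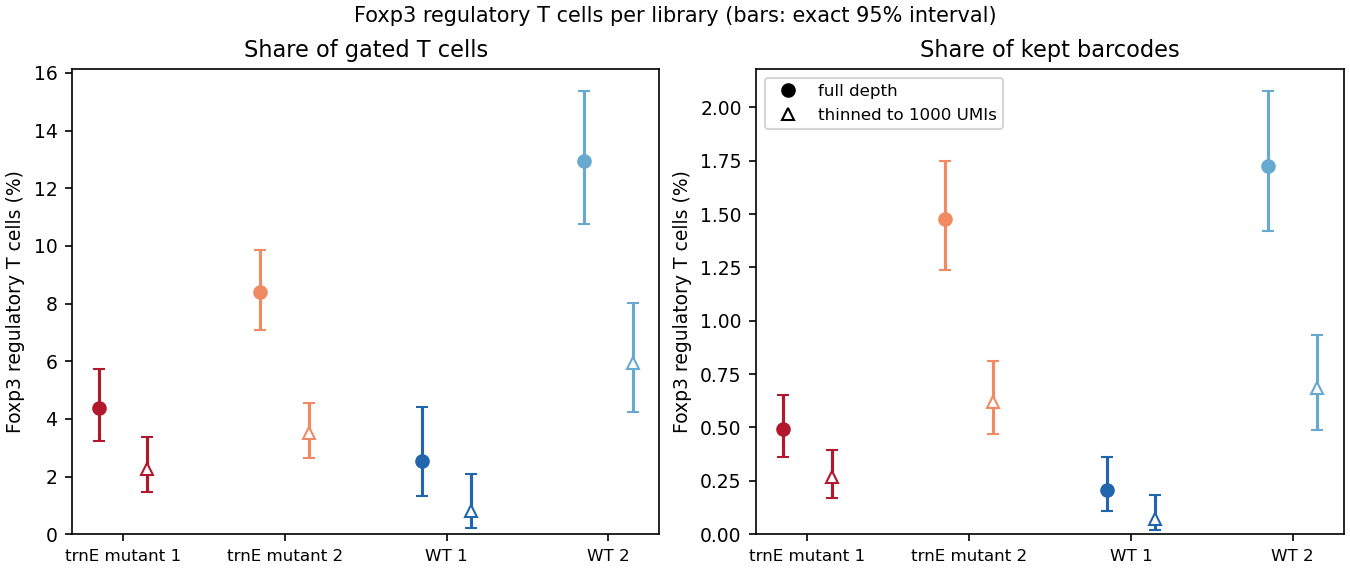
Regulatory T cells as a percent of gated T cells (left) and of kept barcodes (right) by library; circles are full depth, triangles are cells thinned to 1000 UMIs, and bars are exact 95% binomial intervals. The mutant libraries, at 4.36% and 8.40% of gated T cells, lie between the WT libraries, at 2.55% and 12.9%.

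Gene expression in regulatory T cells was then compared between mutant and WT, the contrast the series was built for. No gene of 7059 tested passed an adjusted p of 0.05 in edgeR's quasi-likelihood test, adjusted by Benjamini-Hochberg (0.0%), and the smallest adjusted p was 0.961. At an unadjusted p under 0.05 there were 261 genes (3.7%), and DESeq2 also called 0, with 76 at an unadjusted p under 0.05. In simulated counts of this design, 37% of genes changed 4-fold and 2% of those changed 2-fold were recovered. A count of 0 thus leaves 2-fold changes in single genes largely unexamined, and most 4-fold changes were missed in the simulation too. The simulated counts took each gene's spread from the trend over all genes, so they do not cover genes whose UMIs lie in single barcodes. Leaving out WT 1 gave 129 calls and leaving out WT 2 gave 47, against 1 and 10 without mutant 1 and mutant 2.

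The identity genes were divided between higher and lower values. Foxp3, which the gate reads, stood at 427 and 445 CPM in mutant and 246 and 346 CPM in WT members. Of the 18 other identity genes tested, 9 had positive fold changes, with a median of 0.03 beside -0.01 over all genes. Ikzf2 differed by 0.06 on the log2 scale with a standard error of 0.515, and Ctla4 by 0.35. Tnfrsf4, at 797 and 947 CPM in mutant and 246 and 607 CPM in WT members, had the smallest p of the list (log2 fold change 1.08, edgeR adjusted p = 0.961).

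Klrg1 was among the 10 genes of smallest p whose groups did not overlap, and it bears on tissue-type cells. It stood at 185 and 147 CPM in mutant and 51.8 and 30.0 CPM in WT members, a log2 fold change of 2.35 with a standard error of 0.519 (edgeR adjusted p = 0.961). It passed without WT 1 (edgeR adjusted p = 0.00418) and with no filter on low counts (edgeR adjusted p = 0.00876). A Klrg1 UMI was present in 14 of 48 and 38 of 134 mutant members, against 1 of 12 and 9 of 111 WT members, so the level did not rest on single cells. After thinning the shares were 6.52% and 11.2% in the mutants and 0 and 1.82% in WT.

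Other tissue-type genes varied beside it. Of 28 tested, 19 had positive fold changes, and 8 were higher in both mutants than in either WT library, where 15.5% of all genes were. Il1rl1 stood at 108 and 84.9 CPM in mutant and 38.9 and 43.8 CPM in WT members, and Gata3 at 288 and 212 CPM in mutant and 155 and 107 CPM in WT members. Itgae went the other way in its fold change, -0.85, at 56.6 and 194 CPM in mutant and 90.7 and 368 CPM in WT members, with overlap. None passed by edgeR, and the list's summed level overlapped, at 5684 and 5709 CPM in mutant and 5841 and 4693 CPM in WT members.

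The remaining genes of smallest p were mostly not T cell genes. Rapsn, which clusters acetylcholine receptors in muscle, stood at 61.7 and 60.0 CPM in mutant and 13.0 and 9.23 CPM in WT members and was found in 7, 21, 1 and 7 members of mutant 1, mutant 2, WT 1 and WT 2. Plpp1, a lipid phosphatase, stood at 20.6 and 115 CPM in mutant and 0 and 2.31 CPM in WT members. Single barcodes held 65 of 66 S100g UMIs and 121 of 126 Il1b UMIs in mutant 2, and 62 of 88 Ccnd1 UMIs in WT 2. Ccdc88a, Mef2c and Plxdc2 were lower in both mutants than in either WT library, at 15.4 and 25, 20.6 and 8.74, and 15.4 and 26.2 CPM in mutant and 130 and 88.8, 142 and 64.6, and 104 and 87.7 CPM in WT members. None of these passed (edgeR adjusted p = 0.961 for each).

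Genes induced by interferons had higher values in the mutant members across most of the list. Of 31 listed, 28 were tested, 26 had positive fold changes, and 17 were higher in both mutants than in either WT library, beside a background of 15.5% of all genes. The median log2 fold change was 0.87, beside -0.01 over all genes, and no member passed by edgeR. The summed level was 6389 and 7985 CPM in mutant and 3613 and 4761 CPM in WT members, without overlap.

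Ly6a, encoding Sca-1, was among the most abundant, at 751 and 1135 CPM in mutant and 363 and 313 CPM in WT members (log2 fold change 1.58, standard error 0.444). Ifit3, an antiviral effector, stood at 46.3 and 38.7 CPM in mutant and 0 and 3.46 CPM in WT members. Isg15, a ubiquitin-like modifier, stood at 134 and 149 CPM in mutant and 0 and 58.8 CPM in WT members, and Bst2, encoding tetherin, at 334 and 227 CPM in mutant and 130 and 127 CPM in WT members. Ifi27l2a stood at 1327 and 1269 CPM in mutant and 569.8 and 880 CPM in WT members. Irf7, a transcription factor of the response, overlapped at 51.4 and 87.4 CPM in mutant and 51.8 and 27.7 CPM in WT members. Without WT 1, Ifit3, Rsad2 and Ifi208 passed, with edgeR adjusted p of 0.00697, 0.0283 and 0.0402, and without WT 2 Isg15 passed (edgeR adjusted p = 0.00874).

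The list's direction held in each alternative run, with 17 of 23 genes positive and a median of 0.71 without mutant 2, and 25 of 26 positive and a median of 1.26 without WT 2. With other-type RNA limited to 1%, the summed level was 6650 and 7876 CPM in mutant and 5002 and 5198 CPM in WT members, and 23 of 27 fold changes were positive with a median of 0.74. Conventional CD4 T cells of the same libraries stood at 5562 and 6535 CPM in mutant and 5327 and 3486 CPM in WT, also without overlap. CD8 T cells stood at 4458 and 4879 CPM in mutant and 4199 and 2729 CPM in WT, likewise without overlap. Of the 30 genes tested for a mutant effect that differs between regulatory and conventional CD4 T cells, 13 had positive differences, with a median of -0.06, and none passed by edgeR.

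**Figure D5:**
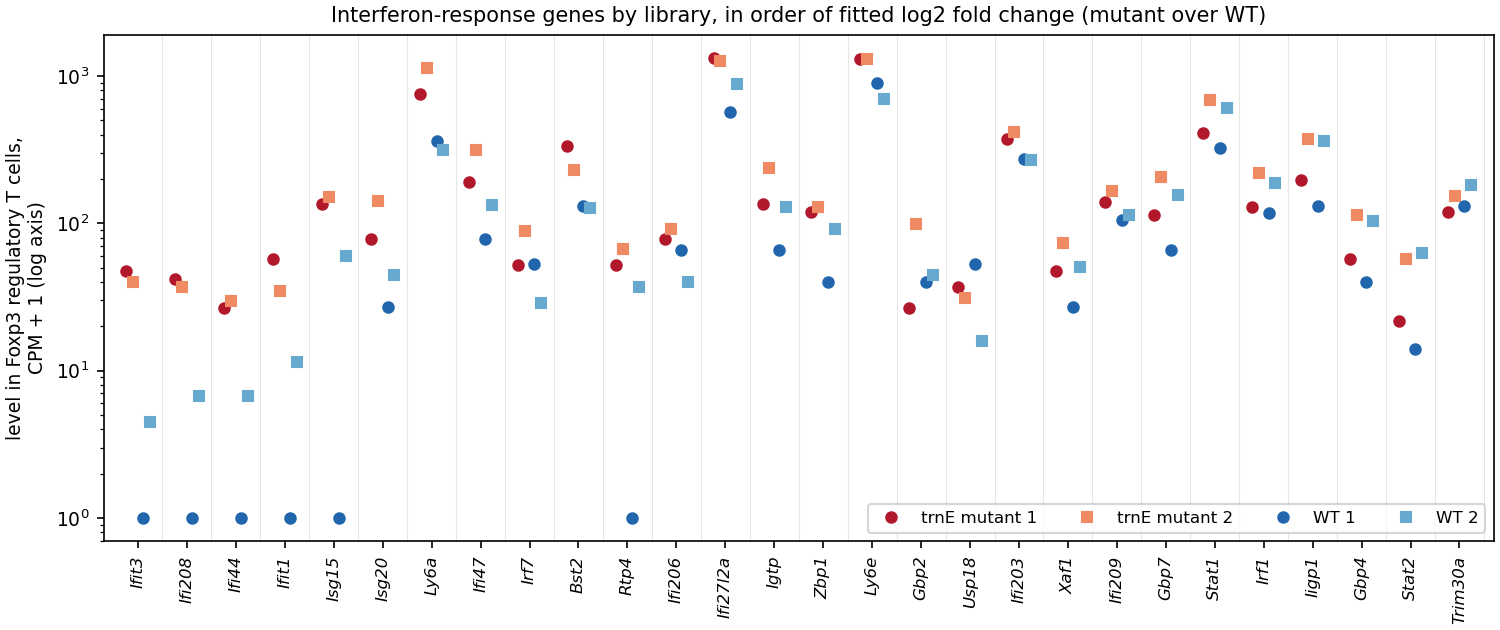
CPM plus 1, on a log axis, of 28 interferon-induced genes in regulatory T cells of each library, ordered by fitted fold change; red and orange points are the mutant libraries and blue points the WT libraries. For 17 of the 28 genes both mutant values exceed both WT values, and no gene passed the test.

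Mitochondrially encoded genes were compared because the mutation lies in a mitochondrial tRNA gene. Their share of all UMIs was 2.43% and 3.68% in mutant members, against 2.84% and 4.01% in WT members. The means were 3.06 ± 0.884% in mutants and 3.43 ± 0.833% in WT (SD, n = 2 each), a difference of -0.369 percentage points (exact permutation test, two-sided, p = 0.667). Among members with at least 2 Foxp3 UMIs the shares were 3.31% and 3.10% in the mutants, against 3.63% and 4.03% in WT, without overlap (exact permutation test, two-sided, p = 0.33, the smallest possible). These were 20 and 92 members in the mutants and 6 and 73 in WT. In mutant 1 they included a member of 5991 UMIs with 27.1% of them on mitochondrially encoded genes. The groups overlapped in each other selection of members run. Over all members, 4 of the 13 genes had positive fold changes, with a median of -0.12. mt-Nd3, a subunit of complex I, stood at 139 and 195 CPM in mutant and 311 and 895 CPM in WT members, a log2 fold change of -1.79 with a standard error of 0.518 (edgeR adjusted p = 0.961), and passed without WT 1 (edgeR adjusted p = 0.00697). mt-Co1 overlapped, at 3945 and 6164 CPM in mutant and 3872 and 5685 CPM in WT members.

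Nuclear genes of the respiratory chain had higher values in mutant members, largely in 1 library. Of 36 complex I genes, 32 had positive fold changes, with a median of 0.45. Of these genes 11 were higher in both mutants than in either WT library and 1 was lower in both, beside 15.5% and 18.5% of all genes. The summed level was 8554 and 5272 CPM in mutant and 5154 and 5359 CPM in WT members, so mutant 1 alone lay above the rest. Without mutant 1 the median was 0.07 and 23 genes were positive. Complexes II to V had the same shape, at 17818 and 11502 CPM in mutant and 11280 and 11796 CPM in WT members. Mutant 1 was also highest in the other T cell classes. For complex I, conventional CD4 T cells stood at 8364 and 5136 CPM in mutant and 5062 and 4450 CPM in WT. CD8 T cells stood at 7877 and 5669 CPM in mutant and 6251 and 4660 CPM in WT. For complexes II to V, mutant 1 stood at 18749 CPM in conventional and 17501 CPM in CD8 T cells, above the other libraries. Mutant 1 members had the lowest median depth, and its part in these levels was not tested.

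Targets of Atf4, the transcription factor of the integrated stress response, had positive fold changes in 13 of 15 genes tested, with a median of 0.40, and none passed by edgeR. Their summed level was 1090 and 1119 CPM in mutant and 1075 and 829 CPM in WT members. Atf4 mRNA itself overlapped, at 72.0 and 79.9 CPM in mutant and 104 and 64.6 CPM in WT members. Trib3, Asns and Gdf15, which are standard readouts of this response, were too low to be tested in these cells.

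Cell cycle genes had lower values in the mutants for 9 of 13 tested, with a median of -0.71, and 6 were lower in both mutants than in either WT library, beside 18.5% of all genes. Mki67, a marker of cycling cells, stood at 5.14 and 8.74 CPM in mutant and 130 and 38.1 CPM in WT members. It was present in 1 and 5 mutant members, against 2 and 8 WT members, and did not pass (edgeR adjusted p = 0.961). Summed over the list, mutant members stood at 1399 and 985 CPM and WT members at 1645 and 1475 CPM.

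Markers of other cell types also varied between the libraries' members. The proximal tubule list summed to 2130 and 1088 CPM in mutant and 246 and 4340 CPM in WT members. The macrophage list without the C1q genes summed to 885 and 2102 CPM in mutant and 2966 and 973 CPM in WT members, and the endothelium list to 46.3 and 517 CPM in mutant and 38.9 and 30.0 CPM in WT members. The tubule and macrophage lists overlapped between the genotypes, and the endothelium list was higher in both mutants. The endothelium list rested on 9 UMIs in mutant 1, against 3 and 26 in WT, and 1 member of mutant 2 held 153 of its 414. With other-type RNA limited to 1%, the macrophage list, here with the C1q genes, did not overlap. It then summed to 570 and 782 CPM in mutant and 206 and 481 CPM in WT members. That limit removes barcodes partly by genes of the same list. C1q UMIs, of which the gate allows up to 2, were present in 20 of 48 and 63 of 134 mutant members, against 1 of 12 and 2 of 111 WT members. The T cell list, the CD8 list and the list of natural killer and gamma delta T cell markers were also higher in both mutants, as the interferon list was. The B cell list, without Cd79a, overlapped at 689 and 1214 CPM in mutant and 635 and 1947 CPM in WT members. Without genes the gate reads, the T cell list summed to 4223 and 4720 CPM in mutant and 4041 and 3426 CPM in WT members, and the CD8 list to 921 and 847 CPM in mutant and 673 and 487 CPM in WT members. The list of natural killer and gamma delta T cell markers summed to 185 and 25 CPM in mutant and 0 and 6.92 CPM in WT members. In mutant 1, 29 of the 36 UMIs of that list came from 1 member. The part of all these marker lists in the interferon values was not tested.

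The mutant effect was last compared between regulatory and conventional CD4 T cells, as a difference of differences. No gene of 8265 passed in edgeR's quasi-likelihood test, adjusted by Benjamini-Hochberg (0.0%), with 228 at an unadjusted p under 0.05 (2.76%). DESeq2 called 3 genes (0.0363%), the class II antigen presentation genes H2-Aa, H2-Ab1 and H2-Eb1, all with a negative difference. H2-Aa stood at 1641 and 669 CPM in mutant and 6721 and 669 CPM in WT regulatory T cells, against 645 and 525 CPM in mutant and 565 and 104 CPM in WT conventional cells. WT 1 members had by far the highest H2-Aa level, and those of mutant 2 and WT 2 were alike. The difference was -2.34 on the log2 scale with a standard error of 0.362 (edgeR adjusted p = 0.126). H2-Aa passed at -1.90 without WT 1, at -2.83 without WT 2 and at -2.79 without mutant 1, with edgeR adjusted p of 2.48e-07, 1.05e-08 and 0.00313, and did not pass without mutant 2 (edgeR adjusted p = 0.153).

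The class II transcripts lay in few members. Of the summed UMIs of Cd74, H2-Aa, H2-Ab1 and H2-Eb1, members with at least 50 such UMIs held 85.5% and 67.2% in the mutants, from 3 members each, and 99.2% and 84.6% in WT, from 3 and 2 members. The median member held 4 and 5 such UMIs in the mutants, against 3 and 3 in WT. With other-type RNA, which includes these genes, limited to 1%, the H2-Aa difference was 0.03 and those of H2-Ab1 and H2-Eb1 were -0.09 and -0.38. No gene passed by edgeR in that fit, and 218 had an unadjusted p under 0.05. The limit removes barcodes by these same genes, so it narrows any difference in them by its construction.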

How the data were processed

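Each of 4 libraries, 2 from trnE mutant and 2 from WT kidneys, was deposited as a matrix of raw UMI counts per gene and barcode over 32285 genes. The matrices were made with Cell Ranger 7.0.0 (mutants) or 7.1.0 (WT) per the file headers, on mm10 per the submitters' processing notes. The sources used here do not give its settings. Library totals were 65565948 and 70013861 UMIs in the mutants and 42121175 and 59946996 in WT. Gene positions are from GENCODE M21 for mm10.

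Barcodes were filtered and gated as the report states, with no correction for free RNA and no doublets removed; Scrublet (scanpy 1.11.5, seed 1) served as an alternative and called 1.68% to 2.45% of barcodes. Counts were summed per library and class and tested with edgeR 4.0.16 in R 4.3.3 (filterByExpr, TMM, glmQLFit, glmQLFTest, Benjamini-Hochberg, threshold 0.05), with DESeq2 1.42.0 as an alternative. Classes were compared with library as a block, and mutant against WT without one; the numbered libraries of the 2 genotypes were not shown to pair. Each edgeR step was tested on simulated counts with 200 changed genes. Standard errors are the absolute log2 fold change divided by the root of edgeR's quasi-likelihood F, so they were derived from the test and not fitted directly. Single values were compared by exact permutation over libraries, two-sided. CPM are relative to the summed UMIs of the class. Conventional cells were also matched to the members on UMIs per cell, member for member.

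Named genes were, between classes, the 12 largest rises and 8 largest falls past the threshold with 1 sign in 4 libraries and a mean of at least 30 CPM. Between genotypes they were the 10 of smallest p without overlap. All identity and mitochondrially encoded genes and up to 4 genes of smallest p from each other list could be added. Further list members were named after their values were seen. The members and the 28 lists were chosen with earlier results of these data known.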

Additional observations from a re-analysis of the deposited data

How the results depend on the processing

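Depth limits the mutant comparison: WT 1 gave 77217 summed UMIs from 12 cells, and 1 of them held 21.4%. With other-type RNA limited to 1%, 9 of these cells were left, with 33989 UMIs. When 1 library was left out, the lone sample of its group was assumed to vary like the others. Genes called between mutant and WT members then numbered 1 to 129, and 48 with no filter on low counts, against 0. TMM off moved the median of all genes from -0.01 to -0.12 there, and the interferon list kept 26 of 28 positive values. The cause of each change below was not tested.

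Against conventional CD4 T cells, calls numbered 109 to 471 with 1 library left out, 739 with no filter, 1343 against all Foxp3-negative T cells, 168 against UMI-matched cells, 254 for members with a Cd4 UMI and 681 with other-type UMIs at most 1%, against 394. Against CD8 T cells they numbered 516 to 1111 with 1 library left out and 1537 with no filter, against 978. For the difference of mutant effects they numbered 11 to 68 with 1 library left out, 38 with no filter, and 3 each by DESeq2, without TMM and at most 25% mitochondrial UMIs, against 0.

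The mutant minus WT share of kept barcodes was -0.743 to 0.776 percentage points with 1 library left out, -0.0848 at most 25% mitochondrial UMIs, -0.0471 with at least 1000 UMIs and -0.0104 with at least 2 Foxp3 UMIs, against 0.0167. The share of gated T cells ranged from -6.56 to 3.83 and the mitochondrial UMI share from -0.994 to 0.256 with 1 library left out, against -1.36 and -0.369. The mitochondrial difference was also -0.949 at most 25% mitochondrial UMIs, -0.142 with doublets removed and -0.623 with at least 2 Foxp3 UMIs.

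Signs turned for few named genes where the main or the alternative fit passed the test. Against all Foxp3-negative T cells these were Cd28 (0.11), Trbc2 (0.0174), Cd6 (0.41), Cd5 (0.59), Slc5a12 (-1.38), Fxyd2 (-1.70), Emcn (-1.98) and Plvap (-2.19). Emcn was at -2.49 with doublets removed. With other-type UMIs at most 1%, Tyrobp was at -0.88 against conventional CD4 T cells and Fcer1g at -0.93 against CD8 T cells. Cd209a ranged from -4.05 to 7.33 between mutant and WT with 1 library left out. Of the other values of called genes, 126 against conventional and 64 against CD8 T cells lost the call, and 803 and 855 kept it. Signs also turned where neither fit passed. Between mutant and WT members 97 values did so, 25 of them without WT 2, beside 1697 that kept their sign and stayed uncalled. Such turns numbered 46 against conventional CD4 T cells and 23 against CD8 T cells.

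Library numbers were not shown to pair the genotypes, since same-numbered libraries correlated at 0.0942 in their deviations. A fit with the number as a replicate block gave 0 calls between mutant and WT members, with 313 at an unadjusted p under 0.05, and 49 calls for the difference of mutant effects.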
